A study of Xenopus laevis with 4 samples.

Results

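The 4 genes described here encode serine protease zymogens of the pancreas, measured as transcripts in the tadpole of *Xenopus laevis*. They are represented by all probe sets whose platform annotation gives the single gene symbol prss1.L (trypsinogen), ctrb1.L (chymotrypsinogen B), ctrl.L (a chymotrypsin-like protease) or ctrc.L (chymotrypsin C). Each gene had 1 such probe set, which makes 4 of 7531 genes named in this way, or 4 of 9304 probe sets with 1 gene symbol. All 4 passed the filter on dim values described with the processing. The suffix .L marks the copy of a gene on the long chromosome of each homeologous pair in this allotetraploid frog. A probe set can also bind transcripts of the other copy or of close relatives of the gene, and the share of such signal is unknown. No probe set carried the single symbol of the .S copies, of ctrb2.L or of prss2.L, and those genes were not analysed here.

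Buds of the dorsal and of the ventral pancreas were dissected from anaesthetised tadpoles before the buds fuse. No strain, genotype or stage is given in the labels. Each sample pooled 1000 to 3000 buds with 1 to 5 ng of total RNA and was measured on its own 1-colour Affymetrix array, and there were 2 dorsal pools and 2 ventral pools. The labels leave unsaid whether the pools of a bud came from separate collections of embryos. The p-values therefore describe the spread among these 4 pools alone, and that spread may be technical.

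Digestive proteases are made in the acinar cells of the exocrine pancreas as inactive zymogens. They are stored in zymogen granules and released into the gut, where enteropeptidase turns trypsinogen into trypsin and trypsin activates the other zymogens. In mammals, transcription of these genes marks the differentiation of acinar cells, and their products become some of the most abundant transcripts of the mature gland. The dorsal and the ventral bud both form acinar tissue.

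Across the 9294 probe sets tested, the log2 values of the dorsal arrays correlated at r = 0.949 and those of the ventral arrays at r = 0.981. The dorsal arrays thus lay farther apart. For dorsal replicate 1 the match within its own bud was the weakest, since r was 0.962 to ventral replicate 1 and 0.954 to ventral replicate 2. Dorsal replicate 2 was the least like the rest, at 0.943 to ventral replicate 1 and 0.938 to ventral replicate 2. The dorsal arrays therefore did not group by bud on this measure. The insulin gene ins.L, the product of endocrine cells, was at 1383 and 1235 in dorsal replicates 1 and 2, against 32.7 and 26.3 in ventral replicates 1 and 2. The 15 probe sets of the liver marker list summed to 1224 and 3304 in dorsal replicates 1 and 2, against 5166 and 4858 in ventral replicates 1 and 2.

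The trypsinogen gene prss1.L had deposited intensities of 31.7 and 12.3 in dorsal replicates 1 and 2, against 21.4 and 21.8 in ventral replicates 1 and 2. Both ventral values fell between the dorsal values, and the ventral pools were nearly equal. These are dim values. The highest of 17 control probe sets meant to have no target was at 11.7 and 12.6 in dorsal replicates 1 and 2 and at 21.5 and 9.37 in ventral replicates 1 and 2, so prss1.L exceeded it in 2 of the 4 arrays, dorsal replicate 1 and ventral replicate 2.

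For the chymotrypsinogen gene ctrb1.L, whose product is activated by trypsin, intensity was 5037 and 2825 in dorsal replicates 1 and 2, against 5353 and 3379 in ventral replicates 1 and 2. The first replicate of each bud was the higher, and the ranges of the buds overlapped. The brightest probe set of any gene on these arrays lay between 5861 and 7443 in the 4 arrays.

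The chymotrypsin-like gene ctrl.L was at 3446 and 465 in dorsal replicates 1 and 2, against 1840 and 677 in ventral replicates 1 and 2. The gene ctrc.L, whose product in humans regulates trypsinogen activation and breakdown, was at 2162 and 342 in dorsal replicates 1 and 2, against 1684 and 634 in ventral replicates 1 and 2. In both genes the dorsal pools were the highest and the lowest of the 4, with the ventral pools between them. In the RefSeq annotation, ctrb1.L and ctrl.L lie on chromosome 4L and ctrc.L and prss1.L on chromosome 7L.

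**Figure D1:**
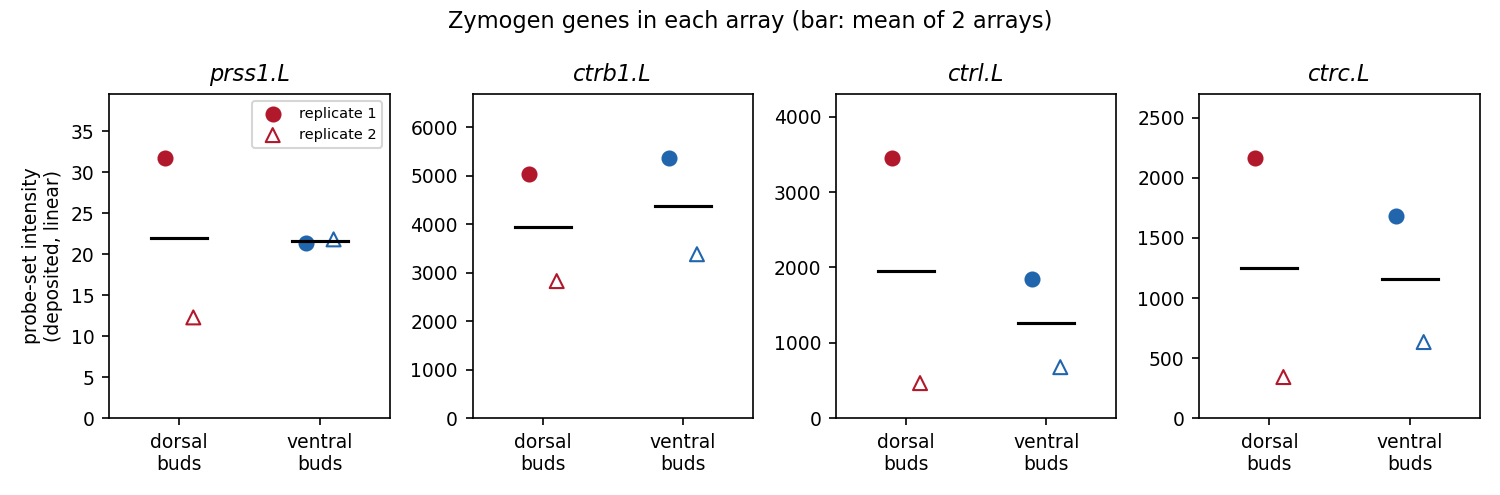
Deposited linear intensity of each zymogen gene (vertical axis, from 0, on its own scale in each panel) in dorsal and ventral buds, with replicate 1 as a filled circle, replicate 2 as an open triangle and the mean of the 2 arrays as a bar. For ctrb1.L, ctrl.L and ctrc.L replicate 1 is above replicate 2 in both buds, while for prss1.L the ventral pools coincide at 21.4 and 21.8.

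The comparison of interest is the dorsal against the ventral bud, and no zymogen gene differed in it beyond the spread of the pools. The test was limma on log2(intensity + 6), a scale that understates the change of dim genes, with Benjamini-Hochberg adjustment over all 9294 probe sets and a threshold of 0.05. Of the 4 genes 0 passed, and 0 had an unadjusted p under 0.05. Over all probe sets tested 0.258% passed (24, of which 7, or 0.0753% of all, lay on the dorsal side and 17 on the ventral side) and 8.62% had an unadjusted p under 0.05. When the arrays were scaled to the poly(A) control probe sets instead, which detect bacterial transcripts used as assay controls, 5 lay on the dorsal and 3 on the ventral side. This scaling, chosen after seeing the data, moved the median log2 difference of all tested probe sets from 0.03 to 0.44. The dorsal and ventral arrays of a probe set did not overlap in 39.9% of all probe sets tested, and overlapped in all 4 zymogen genes.

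The size of the difference was held to very different limits in the 4 genes. Intensity of ctrb1.L averaged 3931 ± 1564 in dorsal and 4366 ± 1396 in ventral buds (SD, n = 2 each). Its log2 difference, dorsal minus ventral, was -0.17 with a 95% interval of -0.88 to 0.53 (limma adjusted p = 0.917). For prss1.L the means were 22.0 ± 13.7 in dorsal and 21.6 ± 0.308 in ventral buds, and the log2 difference was -0.07 with an interval of -0.90 to 0.76 (limma adjusted p = 0.969). The width of the prss1.L interval depends on the value added before log2. It was -1.15 to 0.91 with 1 added and -0.51 to 0.47 with 24 added. The intervals of the other genes were wider, since their replicates lay farther apart.

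For ctrl.L the means were 1956 ± 2108 in dorsal and 1259 ± 823 in ventral buds, with a log2 difference of 0.18 and an interval of -1.86 to 2.23 (limma adjusted p = 0.969). For ctrc.L they were 1252 ± 1287 in dorsal and 1159 ± 742 in ventral buds, with a log2 difference of -0.26 and an interval of -2.17 to 1.65 (limma adjusted p = 0.952). A difference of several-fold in either direction thus lay inside the interval of both genes when the pools were taken as unpaired. In bulk samples, fewer acinar cells and less zymogen RNA per cell cannot be told apart.

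The sign of the difference depended on which pool was left out. Without dorsal replicate 1, 3 of the 4 zymogen genes were lower in dorsal buds in limma: ctrc.L by a log2 difference of -1.58 (adjusted p = 0.00611), ctrl.L by -1.25 (adjusted p = 0.0272) and ctrb1.L by -0.59 (adjusted p = 0.0473), while prss1.L was at -0.59 (adjusted p = 0.192). In that fit 5.09% of all probe sets passed on the same side. Without dorsal replicate 2, ctrl.L was instead higher in dorsal buds by 1.62 (adjusted p = 0.0119), as were 0.947% of all probe sets, and ctrc.L was at 1.06 (adjusted p = 0.102), ctrb1.L at 0.24 (adjusted p = 0.549) and prss1.L at 0.45 (adjusted p = 0.405). In both fits the lone dorsal pool is taken to vary like the ventral pools, which resembled each other more closely than the dorsal pools did. Without ventral replicate 1 or 2 the signs of ctrl.L (0.90 and -0.53), ctrc.L (0.44 and -0.96) and ctrb1.L (0.16 and -0.50) again differed between the fits. All these fits leave 1 pool in a bud, so the sizes alone are given.

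**Figure D2:**
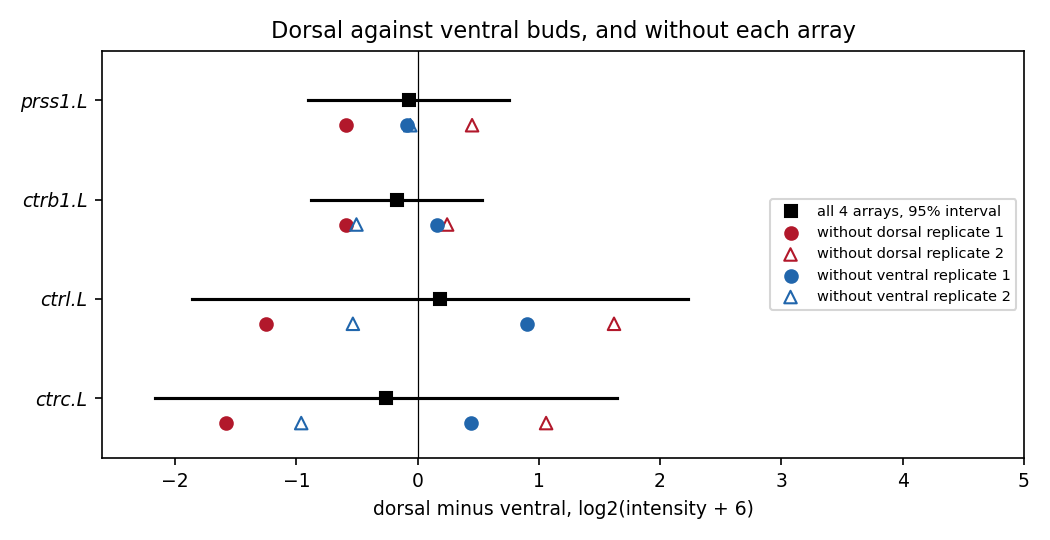
Log2 difference, dorsal minus ventral, of each zymogen gene with all 4 arrays (black square, with the 95% interval as a line) and with each array left out in turn (circles and triangles below it). All 4 intervals include 0, and leaving out dorsal replicate 1 or dorsal replicate 2 gives opposite signs for every gene.

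Larger distances lay between the replicates of a bud. In dorsal buds ctrl.L had 7.41 times and ctrc.L 6.32 times the intensity in replicate 1 as in replicate 2, and in ventral buds 2.72 and 2.66 times. On the log2(intensity + 6) scale, replicate 2 minus replicate 1, the log2 change of ctrl.L was -2.87 in dorsal and -1.44 in ventral buds, and that of ctrc.L was -2.64 in dorsal and -1.40 in ventral buds. Each bud compares 1 array with 1 array here, so these are descriptions without a test.

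The change of ctrb1.L was smaller, at -0.83 in dorsal and -0.66 in ventral buds, or 1.78 and 1.58 times the intensity in replicate 1 as in replicate 2. For prss1.L it was -1.04 in dorsal and 0.02 in ventral buds. So all 4 genes were lower in replicate 2 of the dorsal pools and 3 of 4 in replicate 2 of the ventral pools, where 48% and 50.4% of all probe sets tested were lower. Scaling to the poly(A) controls turned the sign of ctrb1.L in dorsal buds (0.12) and of prss1.L in ventral buds (-0.59). That scaling put the median over all non-control probe sets at 0.78 in dorsal and -0.62 in ventral buds. With the deposited scaling, the median change of the 4 genes was -1.84 in dorsal and -1.03 in ventral buds. Over all probe sets tested it was 0.02 and -0.003.

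Few probe sets on the array were as much lower in replicate 2. Among the 9294 tested, the change of ctrl.L ranked 3 from the lowest in dorsal and 2 from the lowest in ventral buds, and that of ctrc.L ranked 5 and 3. The middle 90% of all probe sets ran from -0.71 to 0.84 in dorsal and from -0.45 to 0.47 in ventral buds, and ctrb1.L lay outside that range in both buds. A change to at least 2-fold lower in replicate 2 was met by 1.67% of all probe sets in dorsal buds (3 of the 4 zymogen genes). Of these, prss1.L (-1.04) was in dorsal replicate 2 below the highest control meant to have no target. Its change was -0.62 with a pseudocount of 24 and -0.33 when scaled to the poly(A) controls. The 2-fold mark was met by 0.14% in ventral buds (2 of the 4), and by 0.0646% in both buds. The last share is 6 probe sets. They were those of ctrl.L and ctrc.L, 2 of the 3 probe sets of the procarboxypeptidase B gene cpb1.S, that of the bile-salt-activated lipase gene cel.2.L, and that of MGC64344, a gene without a descriptive name in the annotation, which was singled out after its values were seen. The last had intensities of 809 and 48.9 in dorsal replicates 1 and 2 and of 412 and 168 in ventral replicates 1 and 2.

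**Figure D3:**
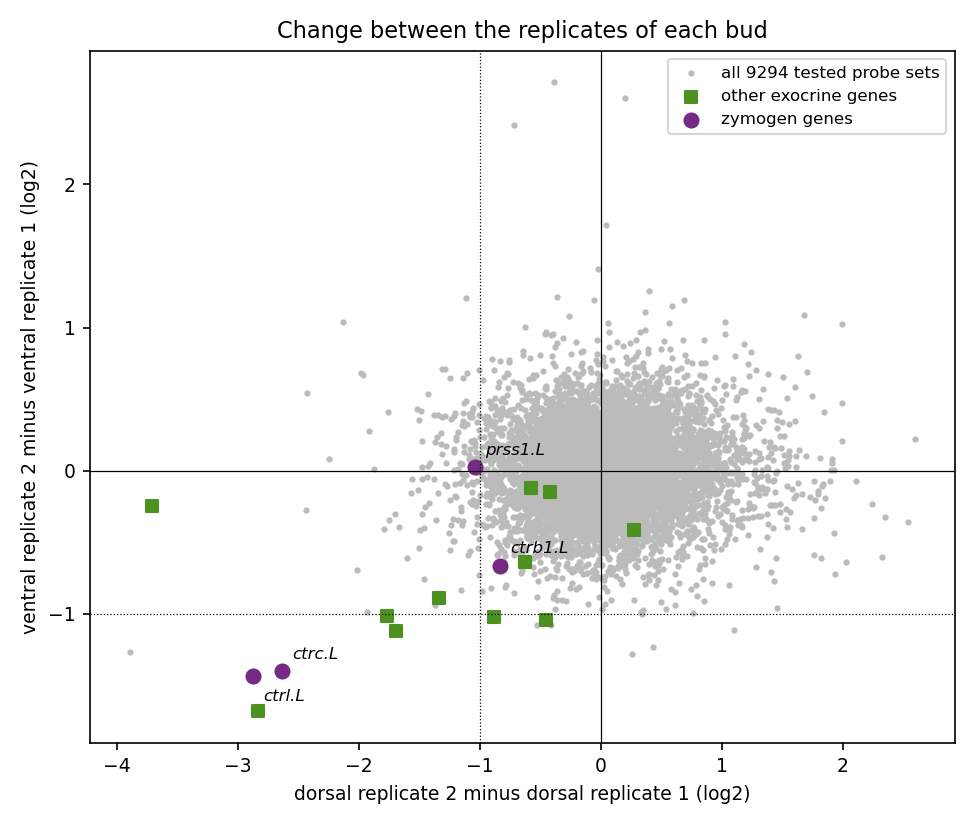
Log2 change between the arrays of a bud, replicate 2 minus replicate 1, in dorsal buds (horizontal) and ventral buds (vertical), for all 9294 tested probe sets (grey), tested probe sets of other exocrine genes (green squares) and the 4 zymogen genes (purple). Dotted lines mark a 2-fold lower value in replicate 2. The genes ctrl.L and ctrc.L lie in the lower left corner among the 6 probe sets past both lines, and prss1.L lies at -1.04 and 0.02.

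Most other exocrine genes were also lower in replicate 2 of both buds. Of 16 such genes on the array, all other than the 4 zymogen genes, 9 passed the filter. In replicate 2 of the dorsal pools 8 of the 9 were lower and in replicate 2 of the ventral pools 9 of 9. The medians were -0.88 in dorsal and -0.89 in ventral buds. When arrays were scaled to the poly(A) controls, these medians were 0.065 and -1.70. On that scale the medians over all non-control probe sets were 0.78 and -0.62. Being lower in both was seen for 8 of the 9, and for 24.9% of all probe sets tested. The exception was gatm.L, which encodes a creatine synthesis enzyme abundant in pancreas, at 0.27 in dorsal and -0.41 in ventral buds. The farthest dorsal change was that of the amylase gene amy2b.S, with intensities of 200.2 and 9.79 in dorsal replicates 1 and 2, against 17.0 and 13.4 in ventral replicates 1 and 2, a log2 change of -3.71 in dorsal and -0.25 in ventral buds. In dorsal replicate 2 and ventral replicate 1 it did not exceed the highest empty control (12.6 and 21.5), so the size of these changes rests on values not above background.

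In the brightest probe set of cpb1.S the changes were -2.83 in dorsal and -1.68 in ventral buds, next to those of ctrl.L. The other tested probe sets of cpb1.S had smaller changes, of -1.76 and -1.02, and of -0.58 and -0.12. The early pancreatic disulfide isomerase gene pdia2.L stood at -1.34 and -0.89, and the procarboxypeptidase A gene cpa1.L at -0.45 and -1.05. The lipase genes cel.2.S and cel.1.L stood at -0.88 and -1.02, and at -0.42 and -0.15. The deoxyribonuclease gene dnase1, whose product digests DNA, was at 617 and 397 in dorsal replicates 1 and 2, against 196 and 124 in ventral replicates 1 and 2. The buds did not overlap, which held for 39.9% of all probe sets tested. Its log2 difference of 1.63, the highest of the list, did not pass (limma adjusted p = 0.103). With each array left out in turn, the log2 difference of dnase1 ran from 1.31 to 1.95. Whether dnase1 passed depended on which array was left out. Such fits leave 1 pool in a bud, so the sizes alone are given. Between buds, limma called 0 of the 9 genes. An unadjusted p under 0.05 was reached by 3 of them, all on the dorsal side, and by 3.41% of all probe sets on that side. All 9 were higher in dorsal than in ventral buds on average, where 45.7% of all probe sets tested were lower. Between the second replicates alone, amy2b.S (-0.30), pdia2.L (-0.09) and cel.2.L (-0.08) had the other sign, and the rest of the 9 kept theirs. The median of the list was 0.82, against 0.03 over all probe sets tested. That median was 0.28 without dorsal replicate 1, 0.37 without ventral replicate 2 and 0.42 with no filter. Under scaling to the poly(A) controls it was 1.20, against 0.44 over all probe sets. The zymogen genes ctrc.L, ctrb1.L and prss1.L had the other sign, at -0.26, -0.17 and -0.07, but none of the 3 differed between the buds beyond the spread of the replicates, and all 3 signs turned without dorsal replicate 2 (1.06, 0.24 and 0.45) and under scaling to the poly(A) controls (0.19, 0.28 and 0.25). The 7 genes too dim to be tested were the pancreatic lipase genes pnlip.L and pnliprp2.L, cpa1.S, and the elastase genes cela1.1.L, cela1.2.L, cela1.4.L and cela3b.L. Elastases are close relatives of the chymotrypsins, and cela3b.L stood between 1.12 and 2.05 in the 4 arrays.

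Other genes were ordered by how near their pattern over the 4 arrays lay to the mean pattern of the zymogen genes. Likeness was the root mean square distance between log2 values centred on each gene's own mean, over 4 arrays and among 5197 named genes. A gene with several tested probe sets was represented by the nearest of them, a choice that favours likeness. The nearest was fkbp11.L (0.14 log2 units), a prolyl isomerase of the endoplasmic reticulum, with intensities of 894 and 229 in dorsal replicates 1 and 2, against 810 and 406 in ventral replicates 1 and 2. It was followed by serp1.S (0.17), a small protein of the endoplasmic reticulum membrane that associates with the translocon, cel.2.L (0.18), sbk1l.L (0.20), pdia2.L (0.21) and ubtf.S (0.23), a factor of ribosomal RNA transcription. The zymogen genes themselves lay between 0.35 (ctrc.L) and 0.43 (ctrl.L) from their own mean, and the median gene at 0.75. Among the 50 nearest of the 5197 genes, all within 0.41, were 2 of the 9 other exocrine genes tested, cel.2.L and pdia2.L. The zymogen genes prss1.L (0.42) and ctrl.L (0.43) themselves lay beyond that distance from their own mean. Over so few arrays such likeness is a description.

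Regulators of the exocrine genes had smaller median changes between replicates than the zymogen genes. Between buds limma called 0 of the 8 acinar transcription factor genes tested. An unadjusted p under 0.05 was reached by 1 of the 8, and by 8.62% of all probe sets tested. The 1 was nr5a2.L, a nuclear receptor of the acinar programme, at a log2 difference of 0.92 (limma adjusted p = 0.411). With each array left out in turn, that difference ran from 0.58 to 1.26. In replicate 2 of the dorsal pools 5 of the 8 were lower and in replicate 2 of the ventral pools 8 of 8, with medians of -0.44 and -0.24. Of all probe sets tested 48% and 50.4% were lower. The lowest in dorsal buds was nr5a2.S, with intensities of 280.0 and 116 in dorsal replicates 1 and 2, against 337 and 237 in ventral replicates 1 and 2. Its homeologue nr5a2.L went the other way in the dorsal pools, by 0.68. Between buds nr5a2.S was at -0.63 (adjusted p = 0.715), and the endoderm factor genes gata6.L and gata4.S were at 0.25 (adjusted p = 0.699) and 0.22 (adjusted p = 0.802). No probe set was named for ptf1a, rbpjl or bhlha15 alone.

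Of the genes of zymogen granule traffic, 3 passed the filter. Between buds limma called 0 of them, and 0 reached an unadjusted p under 0.05, against 0.258% and 8.62% of all probe sets tested. The small GTPase gene rab3d.L, whose product sits on zymogen granules, was at 190 and 70.4 in dorsal replicates 1 and 2, against 175 and 137 in ventral replicates 1 and 2, a change of -1.36 in dorsal and -0.35 in ventral buds. The membrane fusion genes vamp8.L and vamp2.S had log2 changes of 0.10 and -0.06 in dorsal buds, and of -0.01 and -0.08 in ventral buds.

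Of the genes that activate or inhibit trypsin, 6 were tested. None of the 6 was lower in replicate 2 of the dorsal pools, where 48% of all probe sets tested were. Their medians were 0.91 in dorsal and -0.24 in ventral buds. The protease inhibitor gene a2ml1.L was the 1 gene of the list that passed between buds, higher in dorsal buds by 3.56 (limma adjusted p = 0.0047, and 0.073 without ventral replicate 2), and a2m.S was at 1.35 (adjusted p = 0.163). The antiprotease genes serpina1.L and serpina1.S were at -2.32 (adjusted p = 0.112) and -1.51 (adjusted p = 0.598), and are liver markers as well. An unadjusted limma p under 0.05 was reached by 2 of the 6 on the dorsal side and by 1 on the ventral side. Over all probe sets tested, 0.0753% passed on the dorsal side and 8.62% had an unadjusted p under 0.05. No probe set was named for the activator tmprss15 or the trypsin inhibitor spink1 alone.

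Serine proteases of the same fold are also made by liver, blood cells and epithelia. Of 12 such genes tested, 3 passed between buds, all higher in ventral buds, where 0.183% of all probe sets were: the clotting factor genes f12.L (-2.30, adjusted p = 0.0471) and f9.S (-2.27, adjusted p = 0.0133) and the anticoagulant protease gene proc.S (-1.85, adjusted p = 0.0333), all made in liver. The highest empty control was at 11.7 and 12.6 in dorsal replicates 1 and 2. Dorsal intensities of f12.L and f9.S lay below it in both arrays. That of proc.S lay below it in dorsal replicate 1 (10.9) and above it in dorsal replicate 2 (13.8). The fold of the 3 genes depends on the pseudocount. With each array left out in turn, the log2 difference of f12.L ran from -2.65 to -1.96. That of f9.S ran from -2.39 to -2.15, and that of proc.S from -1.98 to -1.72. Whether the 3 genes passed depended on which array was left out. Such fits leave 1 pool in a bud, so the sizes alone are given here. None of the 3 passed when scaled to the poly(A) controls (adjusted p = 0.945 for each). With no filter on dim probe sets, f12.L and proc.S did not pass (adjusted p = 0.0899 and 0.0724), nor did f12.L without the intensity trend (adjusted p = 0.0551). The granulocyte protease gene prtn3.S was at -1.64 (adjusted p = 0.102), with 24.5 and 29.4 in dorsal replicates 1 and 2, against 72.7 and 126 in ventral replicates 1 and 2. Of the 12, 1 was lower in replicate 2 of both buds, where 24.9% of all probe sets tested were. It was the membrane protease gene prss8.S, at -0.46 in dorsal and -0.13 in ventral buds.

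**Figure D4:**
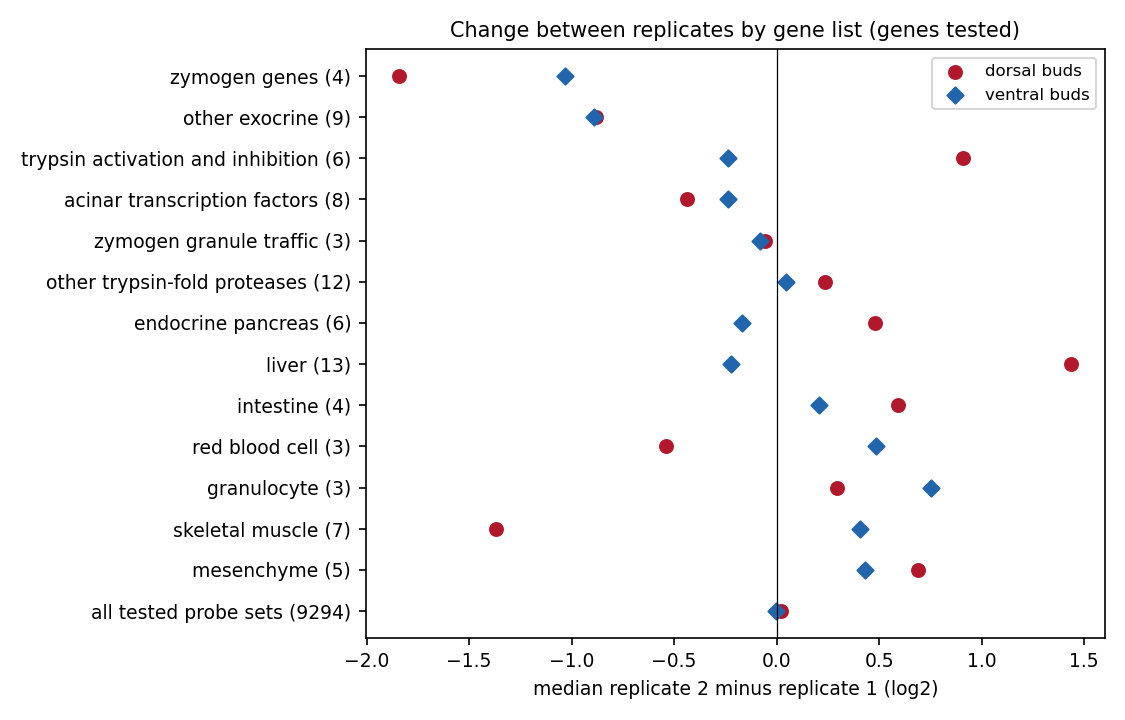
Median log2 change between the arrays of a bud, replicate 2 minus replicate 1, for the zymogen genes, the other gene lists and all tested probe sets (number tested in brackets), in dorsal buds (red circles) and ventral buds (blue diamonds). The zymogen genes (-1.84 and -1.03) and the other exocrine genes (-0.88 and -0.89) lie left of 0 in both buds. Scaled to the poly(A) controls, the dorsal median is 0.065 for the exocrine genes and 0.78 for all non-control probe sets. The liver list is at 1.44 in dorsal and -0.22 in ventral buds.

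Markers of other cells differed between the replicates too, and their part in the zymogen changes was not tested. Of all probe sets tested, 48% were lower in dorsal replicate 2 and 50.4% in ventral replicate 2, and small counts near these shares say little. In dorsal replicate 2, where the zymogen genes were low, 12 of 13 tested liver genes were higher than in dorsal replicate 1 (median 1.44). In the same pool 6 of 7 skeletal muscle genes and 3 of 3 red blood cell genes were lower (medians -1.37 and -0.54). The 12 muscle probe sets summed to 384 and 254 in dorsal replicates 1 and 2, against 796 and 1015 in ventral replicates 1 and 2, and no marker of any list was listed at 0. In ventral replicate 2 the liver median was -0.22, and the 7 muscle genes (median 0.41), 3 red blood cell genes (0.49), 3 granulocyte genes (0.75) and 5 mesenchyme genes (0.43) were all higher. In dorsal replicate 2, 3 of 3 granulocyte genes (0.29), 3 of 5 mesenchyme genes (0.69) and 3 of 4 intestine genes (0.59) were higher, and the ventral intestine median was 0.20, with 3 of 4 higher. The 6 tested endocrine genes had medians of 0.48 in dorsal and -0.17 in ventral buds, and ins.L was at -0.16 and -0.26. The 9 endocrine probe sets summed to 3558 and 4237 in dorsal replicates 1 and 2, against 162 and 122 in ventral replicates 1 and 2.

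Controls of the assay also differed between replicates. The 24 probe sets for bacterial poly(A) control transcripts had a geometric mean of 156 and 80.6 in dorsal replicates 1 and 2 and of 116 and 204 in ventral replicates 1 and 2, and all 24 were lower in dorsal replicate 2 and higher in ventral replicate 2. The controls and the genes ctrl.L, ctrc.L and ctrb1.L were thus all lower in dorsal replicate 2, while in ventral replicate 2 the controls were higher and the 3 genes lower, and the part of the controls' difference in the zymogen changes was not tested. The amount added to each sample is not stated in the labels. Scaled to these controls, ctrl.L had log2 changes of -1.93 (dorsal) and -2.24 (ventral), and ctrc.L of -1.70 and -2.21. On that scale the median change over all non-control probe sets, including those too dim to be tested, was 0.78 in dorsal and -0.62 in ventral buds. Control probe sets at the 5′ and 3′ ends of a transcript are used to judge RNA quality. For beta-actin the 5′ set was at 641 and 1999.6 and the 3′ set at 139 and 189 in dorsal replicates 1 and 2, against 1354 and 1403 (5′) and 207 and 202 (3′) in ventral replicates 1 and 2. For gapdh the 5′ set was at 27.7 and 35.6 and the 3′ set at 268 and 197 in dorsal replicates 1 and 2, against 35.4 and 39.8 (5′) and 266 and 301 (3′) in ventral replicates 1 and 2. Their part in the zymogen changes was not tested.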

How the data were processed

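Pools of dorsal and ventral buds (2 arrays each) were grouped by their titles. The deposited values are linear probe-set intensities, and MAS5 is named without a version in the submitters' processing notes; detection calls and the scaling target are not stated in the labels. Without the 120 control probe sets the mean intensity was 100.0 on each array and the 2% trimmed means were 61.1 to 63.3, so the deposited scaling was kept. The number of arrays limits the precision. A pseudocount of 6 was added before log2. Probe sets above the 40th percentile of mean log2 (9294 of 15491) entered the fit, which used lmFit and eBayes of limma 3.58.1 (R 4.3.3), an intensity trend and no covariate. Symbols were updated through RefSeq (*Xenopus laevis* v10.1), which matched 9227 of 9304. Each gene of a list was represented by its brightest probe set, and each gene ordered by likeness of pattern by its nearest. The procedure was tested on simulated data with the same spread in both buds. In the arrays the replicate changes of all probe sets tested had an SD of 0.48 in dorsal and 0.29 in ventral buds. The simulation does not cover that inequality. No build is given for the array, so no coordinates are printed.

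Named genes were the 4 zymogen genes, tested members of the exocrine list, the 4 farthest genes between buds of each other list and the 6 genes nearest in pattern; others were chosen after their values were seen. Members and lists were chosen with earlier results of these data known. Alternatives were other pseudocounts, filters, scalings and variance models, a replicate block and each array left out.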

Additional observations from a re-analysis of the deposited data

How the results depend on the processing

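Differences between buds depended on which array was left out, with log2 ranges of -1.25 to 1.62 for ctrl.L, -1.58 to 1.06 for ctrc.L, -0.59 to 0.24 for ctrb1.L and -0.59 to 0.45 for prss1.L, of 0.28 to 1.23 for the median of the other exocrine genes, and of 4 to 902 for the count of probe sets past the threshold (24 with all arrays). The labels leave unsaid whether equal replicate numbers mark paired pools, and pairing was not tested. Deviations of same-numbered arrays correlated at 0.05 across all probe sets tested. For ctrl.L, ctrc.L, ctrb1.L and 8 of the 9 other exocrine genes, replicate 2 was lower in both buds, as for 24.9% of all probe sets tested. A replicate block gave a count of 67, and the 4 zymogen genes kept their values and did not pass (adjusted p from 0.705 to 0.966), with narrower intervals of -0.47 to 0.84 for ctrl.L and -0.85 to 0.33 for ctrc.L, while dnase1 passed (adjusted p = 0.00753). A filter at the 60th percentile, under which prss1.L was not tested, gave 13, and the count was 8 when scaled to the poly(A) controls, an alternative chosen after seeing the data. Under that scaling, in which the median of all tested probe sets was 0.44 between buds, ctrc.L was at 0.19, ctrb1.L at 0.28 and prss1.L at 0.25. Changes from replicate 1 to replicate 2 in dorsal and ventral buds were then -1.93 and -2.24 for ctrl.L, -1.70 and -2.21 for ctrc.L, 0.12 and -1.48 for ctrb1.L, -0.33 and -0.59 for prss1.L, and 0.065 and -1.70 for the other exocrine median, each shifted by the change of the controls. With no filter the exocrine medians were 0.42 between buds and -0.38 between ventral replicates, since 7 dim genes entered. Pseudocounts of 1 and 24, median and quantile scaling and eBayes without a trend changed no sign or call of a zymogen gene between buds. For prss1.L and the elastase genes, signal near that of the empty controls limits what can be read.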
